A study of Mus musculus with 17 samples.

Results

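Open chromatin of nucleus accumbens neurons was compared between diestrus and proestrus in female mice that had received no cocaine. The comparison used 6 of the 17 ATAC-seq libraries of the series, 3 titled diestrus control and 3 titled proestrus control. Each library came from NeuN+ nuclei, sorted from the bilateral nucleus accumbens of C57BL/6 females (C57BL/6J in the study's methods) aged 52 to 54 days, and pooled 3 animals. Members were the merged autosomal peak regions, promoters and genes with a peak in every library of one stage and in none of the other. By this rule 7410 of 112406 regions were members, 6058 in diestrus and 1352 in proestrus, where the 112406 are regions that at least 2 libraries of 1 stage had called. Cocaine-treated females of both stages (3 libraries each, 10 mg/kg intraperitoneally, 1 h) and males (3 control and 2 cocaine libraries) served as libraries that had not chosen the members.

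The estrous cycle moves neurons through large swings in ovarian hormones. Proestrus is the stage of high estrogen and low progesterone, and diestrus has the reverse. The receptors of these hormones are transcription factors that bind DNA elements in promoters and distant enhancers. In ATAC-seq a transposase cuts accessible DNA, so a peak marks a promoter or enhancer free of packed nucleosomes. The nucleus accumbens, part of the reward circuit, consists mainly of GABAergic medium spiny neurons with dopamine D1 or D2 receptors. NeuN is a nuclear protein of most neurons, and the sort does not separate neuron types or neighbouring regions.

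The 3 diestrus libraries held 127205, 137231 and 144699 autosomal peaks, and the 3 proestrus libraries 122757, 121156 and 131702. Each peak had a fold enrichment, its summit pileup over the background of its own library. The background pileup, a measure of relative depth, was 6.75, 7.96 and 8.64 reads in diestrus and 8.47, 7.62 and 9.55 in proestrus. The stages overlapped in this measure, and within each stage the library with the highest pileup had the most peaks. Peaks with a −log10 q of at least 5 numbered 78552, 79080 and 78939 in diestrus. In proestrus there were 68862, 64042 and 77757 such peaks, so the stages did not overlap at this threshold. How far this enters the counts of members was not tested. The share of regions in common (Jaccard index) was 0.560 to 0.581 within diestrus, 0.536 to 0.549 within proestrus and 0.489 to 0.523 between the stages. A missing peak means not called at this depth and not closed chromatin. The promoters of Drd1 and Drd2, which encode the dopamine receptors of medium spiny neurons, were called in all 6 libraries.

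Of the sequences, 5 are shown because the results turn on them. They are the 201 bp centred on a summit, plus strand of mm10. The first 3 are the strongest diestrus-only regions of Prkcd, Rora and Slc17a6, the Foxp1 sequence is the strongest proestrus-only region at that gene, and the last is the strongest of all distal proestrus-only regions. Capitals mark the E-box CAGCTG in Rora and copies of ATTCCATT near Hif1an. The sequences at Prkcd, Slc17a6 and Foxp1 held none of the motifs or strings searched.
Prkcd intron, chr14:30597458-30597658: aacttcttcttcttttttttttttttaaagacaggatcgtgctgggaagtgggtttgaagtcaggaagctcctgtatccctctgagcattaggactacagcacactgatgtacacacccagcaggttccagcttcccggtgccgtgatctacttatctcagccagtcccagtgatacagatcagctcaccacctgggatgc
Rora intron, chr9:69071468-69071668: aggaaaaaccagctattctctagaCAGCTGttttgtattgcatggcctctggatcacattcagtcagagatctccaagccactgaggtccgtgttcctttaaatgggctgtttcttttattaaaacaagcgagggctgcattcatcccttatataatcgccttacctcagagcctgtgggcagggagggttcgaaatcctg
Slc17a6 intron, chr7:51662649-51662849: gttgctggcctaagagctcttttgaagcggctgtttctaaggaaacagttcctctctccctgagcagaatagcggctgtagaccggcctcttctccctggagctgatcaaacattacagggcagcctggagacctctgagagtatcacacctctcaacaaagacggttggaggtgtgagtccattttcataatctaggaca
Foxp1 intron, chr6:98983296-98983496: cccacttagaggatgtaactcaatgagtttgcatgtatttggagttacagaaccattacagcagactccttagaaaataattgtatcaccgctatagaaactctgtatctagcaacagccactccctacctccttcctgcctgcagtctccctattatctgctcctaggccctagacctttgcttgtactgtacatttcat
intergenic, nearest Hif1an, chr19:44607003-44607203: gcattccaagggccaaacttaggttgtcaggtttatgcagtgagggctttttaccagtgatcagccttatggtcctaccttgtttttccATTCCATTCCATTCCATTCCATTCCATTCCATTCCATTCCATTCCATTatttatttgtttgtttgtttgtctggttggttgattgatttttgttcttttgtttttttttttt

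Most one-stage regions belonged to diestrus. Diestrus-only regions made up 5.39% of the 112406 regions and proestrus-only regions 1.2%. By comparison, 51581 regions were called in all 6 libraries. The members were weak peaks. The median fold enrichment over diestrus-only regions was 3.49, 3.01 and 3.01 in the 3 diestrus libraries, and over proestrus-only regions 2.75, 2.78 and 2.75 in the 3 proestrus libraries. The weakest calling library had a median of 2.79 in diestrus-only and 2.53 in proestrus-only regions, against 3.87 in regions called in all 6. No test per region was run, since a member has no value in one stage and an exact permutation of 3 libraries against 3 cannot give a p below 0.1.

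The diestrus-only regions lay far from genes' start sites. Of them, 3166 were intronic, 2143 intergenic, 441 exonic and 308 within 1 kb of a start site. The proestrus-only regions comprised 636 intronic, 360 intergenic, 194 exonic and 162 promoter regions. Regions over 10 kb from a start site made up 70.6% of diestrus-only, 47.6% of proestrus-only and 55.9% of all regions tested. Members occurred on every autosome, with diestrus-only shares from 4.42% on chromosome 11 to 6.18% on chromosome 8 and proestrus-only shares from 0.889% on chromosome 17 to 1.61% on chromosome 18.

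Few promoters differed in their calls. Of 13177 promoters of protein-coding genes (within 1 kb of any start site) called in at least 2 libraries of 1 stage, 62 (0.471%) were diestrus only and 18 (0.137%) proestrus only, while 12238 were called in all 6. The strongest diestrus-only promoter was that of Vil1, which encodes the actin-bundling protein villin of microvilli. Its fold enrichment was 7.36, 7.15 and 6.64 in the diestrus libraries, with no peak in proestrus. The Lin28a promoter, of an RNA-binding protein that blocks let-7 maturation, had values of 4.39, 3.68 and 3.94. Dmc1, a recombinase of meiosis, had 3.87, 4.24 and 3.42. The other promoters among the 12 strongest were those of Gm10100, Jaml, Banf2, Olfr71 (an odorant receptor), Gm15737, L1td1, Epp13, Fam124b and Rab37, whose weakest library ranged from 3.42 to 4.98. Several of these genes are known from tissues other than brain.

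In proestrus the strongest promoter was that of Crxos, with fold enrichments of 6.76, 5.80 and 4.74. Podn, which encodes a small leucine-rich proteoglycan, had 6.02, 4.06 and 4.45. Tas1r3, a taste receptor subunit, had 3.06, 3.02 and 3.41. The promoter of Tbr1, a transcription factor of cortical excitatory neurons, had 3.38, 3.02 and 2.94, and that of Prss12, the synaptic protease neurotrypsin, had 2.85, 3.83 and 3.89. The others of the 12 were Gm4707, Zfp607a, Procr, Gm45140, Erfe (erythroferrone), Rcvrn (recoverin) and Fam166a. The Tbr1 promoter was also called in 9 of the 11 libraries outside the comparison, among them all 3 diestrus cocaine libraries.

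Most of the other strong proestrus promoters were called in few libraries outside the comparison. Crxos was called in male control 3 alone, Gm4707 in proestrus cocaine 4 alone, Procr in both of these libraries and Zfp607a in none. In these 4 promoters the highest value of the proestrus controls was that of library 1. Podn was called in the 3 male controls, and Prss12 in 8 of the 11.

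**Figure D1:**
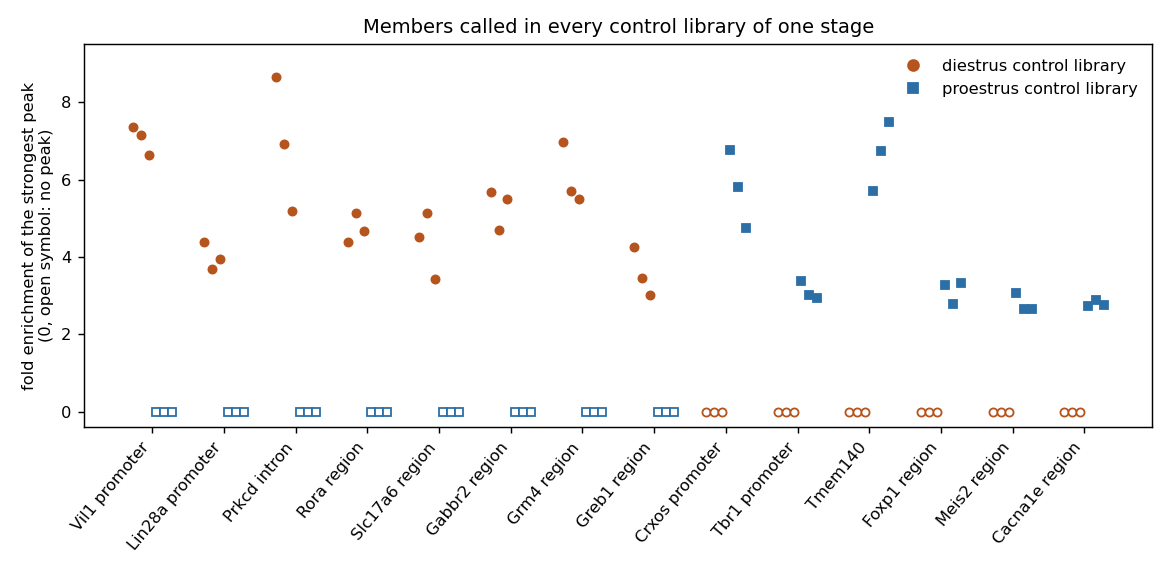
Fold enrichment (ratio, no unit) of the strongest peak in each of the 6 control libraries for 8 diestrus-only and 6 proestrus-only members. Circles are diestrus and squares proestrus libraries, and open symbols at 0 mean no peak. Values run from 2.65 at Meis2 to 8.65 at Prkcd.

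The genes of hormone signalling were examined at their promoters whatever their calls. The promoter of Esr2, which encodes estrogen receptor beta, was a diestrus-only member with fold enrichments of 2.58, 2.79 and 2.49, where the lowest called peak of a diestrus library had 1.97 to 2.19. These are each library's highest peak within 1 kb of any Esr2 start site and need not come from a single shared region. The Esr2 promoter was called in 8 of the 11 other libraries, including proestrus cocaine libraries 1 and 4 and all 3 male controls. The promoter of Esr1, estrogen receptor alpha, was called in diestrus library 3 alone, at 2.28. The promoter of Pgr, the progesterone receptor, was called in all 6 libraries, at 5.68, 6.14 and 5.60 in diestrus and 5.07, 7.31 and 6.73 in proestrus. Oxtr, the oxytocin receptor, had 4.91, 5.47 and 5.60 in diestrus and 5.38, 6.38 and 5.78 in proestrus. Both stages overlapped at Pgr and Oxtr. The immediate early gene Fos had 10.2, 11.5 and 11.6 in diestrus and 7.50, 9.28 and 11.5 in proestrus, which overlapped as well.

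Within the list of 20 genes of estrogen, progesterone and oxytocin signalling, 9 of 126 regions (7.14%) were diestrus only and 0 proestrus only. Over the 81072 regions at any protein-coding gene the shares were 4.83% and 1.22%. The 9 regions lay at 6 genes, and Esr2 was not among them. Greb1, a known estrogen target, held 2, the stronger at 4.26, 3.46 and 3.01. The growth factor receptor gene Igf1r held 2, the stronger at 3.61, 3.24 and 4.25. The coactivator gene Ncoa1 held 2, and Ncoa2, the corepressor gene Nrip1 and the prolactin receptor gene Prlr held 1 each. Over the list, a region was called in 2.54 diestrus and 1.96 proestrus libraries on average, against 2.39 and 2.16 over all regions at genes. Of the 58 regions of the list called in all 6 libraries, 9 (15.5%) had a higher scaled fold enrichment in every proestrus library and 4 (6.90%) in every diestrus library, against 13.5% and 9.31% of all such regions. Scaled means relative to the library's median. The median difference of the list, diestrus minus proestrus, was -0.10 on the log2 scale, against -0.04 over all such regions.

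Whole genes with peaks in one stage only were also rare. Of 14682 genes called in at least 2 libraries of 1 stage, anywhere in the gene or within 1 kb of a start site, 121 (0.824%) were diestrus only and 19 (0.129%) proestrus only. Prkcd, which encodes protein kinase C delta, led the diestrus genes with 8.65, 6.92 and 5.19. All 3 of its regions were diestrus only. Next were Gm10100, Fkbp6 (a cochaperone needed in male meiosis), Pdlim3 (a muscle cytoskeleton protein), Jaml, Grid2ip (a scaffold of the delta-2 glutamate receptor), Myo1f (a myosin) and Cdx1 (a homeobox factor of intestine). Slc17a6, which encodes the vesicular glutamate transporter VGLUT2, had a single region, at 4.52, 5.14 and 3.42 in diestrus and no peak in proestrus. In proestrus Tmem140 led with 5.70, 6.73 and 7.49, followed by Crxos, Tmem233 (called elsewhere in male control 3 alone), Gm4707, Enpp3, Zfp607a, Zfp541 (a zinc finger gene of testis, also called in male control 3 alone) and Procr.

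Counts of members per gene were highest in long genes, which hold many regions, and are read against the 4.83% of all regions at genes that were diestrus only. Rbfox1, a splicing regulator, held 31 of its 358 regions (8.66%), Cacna1c, the L-type calcium channel subunit, 27 of 162, and the growth factor receptor gene Fgfr2 19 of 159. Rora, a nuclear receptor, held 16 of 51, the highest share of these 4. None of Cacna1c, Fgfr2 and Rora held a proestrus-only region, and Rbfox1 held 2. The other genes of the first 6 were Gm20388 (30 of 578) and Ctif (14 of 52). The gene models of Gm20388 (4435 kb) and Fgfr2 (2961 kb) are far longer than typical genes and span other genes, so their regions cannot be assigned to them alone. In Cacna1c, 42 regions were called in all 6 libraries, and after each library was scaled to its median 16 of them were higher in every diestrus library and 2 in every proestrus library. The corresponding background over the 51581 regions was 9.31% higher in every diestrus library and 13.5% higher in every proestrus library.

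The strongest distal diestrus-only regions lay in introns of Abhd12b (8.13, 6.70 and 6.54), Mgat5 (6.45, 6.25 and 6.64) and Adamtsl1 (8.65, 6.03 and 6.23). Others were intronic in Dab2ip, Arhgap26 and Tmcc3, and intergenic near Otos and Celf2. Distal diestrus-only regions, more than 1 kb from every start site, numbered 5750 of 93359 (6.16%), and distal proestrus-only regions 1190 (1.27%). All 8 of these strongest diestrus regions were called in diestrus cocaine library 1 and none in diestrus cocaine libraries 2 and 3. The proestrus cocaine libraries called 5, 2 and 5, the male controls 8, 6 and 7, and the male cocaine libraries 0. Of all tested regions the diestrus cocaine libraries called 81.9%, 62.6% and 55.0%, and the proestrus cocaine libraries 68.3%, 65.0% and 66.9%. For male controls these shares were 72.5%, 65.5% and 71.7%, and for male cocaine libraries 51.4% and 45.1%.

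Several diestrus-only members, among them Prkcd, Slc17a6, Rora, Tcf7l2, Lef1 and Synpo2, are genes known to be prominent in neurons of the thalamus. A list of 15 such genes was drawn up after these values were seen, so it carries no test. Of its 138 regions, 41 (29.7%) were diestrus only and 2 (1.45%) proestrus only, and the 41 lay at 10 genes. The proestrus-only regions lay at Tnnt1 and Lhx2, and Lhx2 was also among the 10 genes. The other genes of the list held no diestrus-only region. Synpo2 held 8 of its 15 regions, at best 6.58, 4.35 and 5.08. Tcf7l2, a transcription factor of Wnt signalling, held 4 of 11 and Lef1, of the same TCF/LEF family, 3 of 5. The calcitonin receptor accessory gene Ramp3 held 1 of 2, at 5.55, 6.25 and 5.19. Without Rora the shares were 28.7% and 2.30%. Another 41 list regions were called in all 6 libraries. Of these, 7 (17.1%) had a higher scaled fold enrichment in every diestrus library and 7 (17.1%) in every proestrus library. Without Rora, 3 of 26 (11.5%) were higher in every diestrus library and 6 (23.1%) in every proestrus library. Over all regions called in all 6 libraries the shares were 9.31% and 13.5%.

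The control libraries had to differ at these genes, since 41 of the 138 regions were members by the rule and the list was drawn up from them. As a description, the 3 diestrus controls called 84.8 to 89.9% of the 138 regions, with summed fold enrichments of 534 to 548. The 3 proestrus controls called 39.9 to 45.7%, with sums of 261 to 279. Diestrus cocaine library 1 called 78.3%, diestrus cocaine libraries 2 and 3 called 42.0% and 37.7%, and the proestrus cocaine libraries 52.9%, 45.7% and 52.9%. The male controls lay between, at 60.9%, 58.7% and 63.0%. Over all tested regions the shares were 81.9%, 62.6% and 55.0% in diestrus cocaine and 68.3%, 65.0% and 66.9% in proestrus cocaine libraries. In male controls they were 72.5%, 65.5% and 71.7%. Each of these libraries thus called a smaller share of the list than of all regions. How far the share of thalamic or other neurons in the dissected tissue enters the diestrus-only regions was not tested, and peak calls cannot tell more cells of a type from more open chromatin per cell.

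Among markers of other cells, counts are read against the 4.83% diestrus-only and 1.22% proestrus-only shares of all regions at genes. For cortical excitatory neuron genes 5 of 34 regions (14.7%) were diestrus only, 4 of them at Cux2 and 1 at Slc17a6, and 2 (5.88%) were proestrus only, both at Tbr1. Of the 11 regions of this list called in all 6 libraries, 4 (36.4%) were higher in every diestrus library and 0 in every proestrus library. Over all regions called in all 6 these shares were 9.31% and 13.5%. The promoters of 5 of the 11 genes on the list, Emx1, Emx2, Fezf2, Neurod6 and Slc17a6, were called in no control library. Summed fold enrichments of that list were 98.2 to 131 in diestrus and 72.4 to 87.9 in proestrus. For astrocyte genes they were 93.5 to 109 and 71.7 to 80.6, and 2 of 22 regions were diestrus only (Slc1a3 and Slc1a2). For striatal interneuron genes the sums were 82.6 to 124 and 64.6 to 65.9, with 1 of 27 regions diestrus only, at Nos1. Endothelial genes had sums of 47.9 to 56.3 and 35.4 to 45.5, with 1 region of 11 in each direction. Microglial genes had 120 to 149 and 105 to 118, with 0 of 19 regions in either direction. Oligodendrocyte lineage genes had overlapping sums of 162 to 190 and 170 to 190, and 1 of 47 regions, at Mbp, was proestrus only. Pan-neuronal genes had 1554 to 1782 and 1319 to 1532, with 5 and 3 of 445 regions. These sums are not normalized between libraries, and no sum over all regions was taken. Calcium, sodium and potassium channel genes also had higher sums in diestrus, 5094 to 5538 against 4029 to 4589. Striatal transcription factors had lower ones, 1145 to 1259 against 1334 to 1456. The part of other cell types in the members was not tested.

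**Figure D2:**
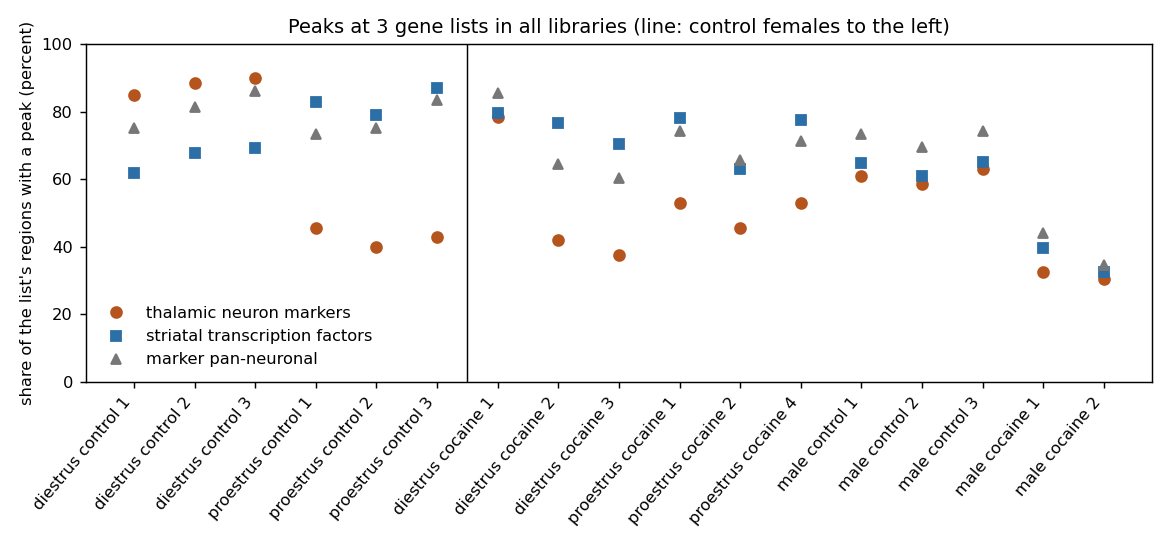
Share (percent) of each list's regions with a peak in each of the 17 libraries, for thalamic neuron markers (138 regions, circles), striatal transcription factors (411, squares) and pan-neuronal markers (445, triangles). The 3 diestrus controls stand at 84.8 to 89.9% for thalamic markers and the 3 proestrus controls at 39.9 to 45.7%, with the order reversed for striatal factors. The thalamic list was chosen after its values were seen, and 41 of its regions are diestrus only by the rule.

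Foxp1 held more proestrus-only regions than any other gene. It belongs to the list of 20 striatal transcription factors, where 17 of 411 regions (4.14%) were proestrus only and 1 (0.243%) diestrus only, against 1.22% and 4.83% over all regions at genes. Of the 17, 14 lay at Foxp1, a forkhead factor abundant in medium spiny neurons, 2 at Meis2 and 1 at Mef2c. Without Foxp1, 3 of 235 regions (1.28%) were proestrus only and 0 diestrus only, near the background of 1.22% for proestrus, so the proestrus share of the list rested on that gene. The strongest Foxp1 region had fold enrichments of 3.27, 2.78 and 3.32 in proestrus. The strongest Meis2 region, which overlaps an exon, had 3.06, 2.67 and 2.65. The median peak of a proestrus library had 2.94 to 3.13.

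Regions of the list that were called in all 6 libraries, and so were no members, leaned to proestrus as well. Among its 165 regions called in all 6 libraries, 47 (28.5%) had a higher scaled fold enrichment in every proestrus library and 2 (1.21%) in every diestrus library, against 13.5% and 9.31% over all such regions. The median difference, diestrus minus proestrus, was -0.20 on the log2 scale, against -0.04 over all. At Foxp1 25 of 66 such regions were higher in every proestrus library and 1 in every diestrus library. Without Foxp1, 22 of 99 were higher in every proestrus library and 1 in every diestrus library. The list's regions were called in 61.8 to 69.3% of cases in diestrus and 79.1 to 86.9% in proestrus controls. In the cocaine libraries the share was 79.6%, 76.6% and 70.3% in diestrus and 78.1%, 63.0% and 77.4% in proestrus, so the stages overlapped there. Of all tested regions the same libraries called 81.9%, 62.6% and 55.0% in diestrus and 68.3%, 65.0% and 66.9% in proestrus. Diestrus cocaine libraries 2 and 3 thus called more of the list than of all regions, as did proestrus cocaine libraries 1 and 4.

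After Foxp1, the genes with the most proestrus-only regions were Gm20388 (9), Cacna1e (8 of 133), a subunit of R-type calcium channels, Gm20696 (7), Ank3 (6 of 183), the ankyrin of the axon initial segment, and Mbnl2 (5 of 59), a splicing factor. Gm20696 overlaps Foxp1 in the annotation, and regions can count for both. Over all regions at genes, 1.22% were proestrus only and 4.83% diestrus only. In dopamine and medium spiny neuron signalling, 2 of 167 regions (1.20%) were proestrus only, at Gnal and Rgs9, which is near that background. Below its background was the diestrus-only share, with 1 region (0.599%), at Oprm1, the mu opioid receptor gene. Among activity-induced genes, 1 of 72 regions (1.39%) was diestrus only, at Dusp1, and 0 were proestrus only, both below the background.

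Synaptic receptor and channel genes held shares near the background of 4.83% and 1.22%. For glutamate receptors 42 of 850 regions (4.94%) were diestrus only and 9 (1.06%) proestrus only. The strongest was at Grm4, a presynaptic metabotropic receptor gene, with 6.97, 5.69 and 5.50. Of the NMDA receptor genes, Grin2a held 8 of 46 and Grin2b 5 of 173. For GABA synthesis, transport and receptors 20 of 374 (5.35%) were diestrus only, 13 of them at Gabbr2, a subunit of the GABA-B receptor, and 1 (0.267%) was proestrus only. For calcium, sodium and potassium channels the counts were 84 (5.28%) and 23 (1.44%) of 1592. The strongest regions there were at the potassium channel genes Kcnc2 (7.10, 4.35 and 4.36) and Kcnd3 (5.42, 4.24 and 4.67). For synaptic adhesion and scaffold genes they were 84 (4.47%) and 15 (0.797%) of 1881, led by Shank2 and Tenm4.

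Of the remaining lists, circadian clock genes held 19 diestrus-only regions of 159 (11.9%), but 16 of them were at Rora and 3 at Npas2. Without Rora 3 of 108 (2.78%) were diestrus only. Cry2 held the 1 proestrus-only region. Stress hormone genes held 6 (6.98%) and 2 of 86, with 3 at Zbtb16, 2 at the glucocorticoid receptor gene Nr3c1 and 1 at Crhr2 in diestrus, and 2 at Sgk1 in proestrus. Chromatin and DNA methylation genes held 7 (3.30%) and 3 of 212. Smchd1, which encodes a silencing factor of the inactive X, had 1 region in each direction, but the proestrus one is the promoter region of Gm4707, whose start site lies within the Smchd1 gene. The promoters of all 23 genes of the list were called in all 6 control libraries.

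**Figure D3:**
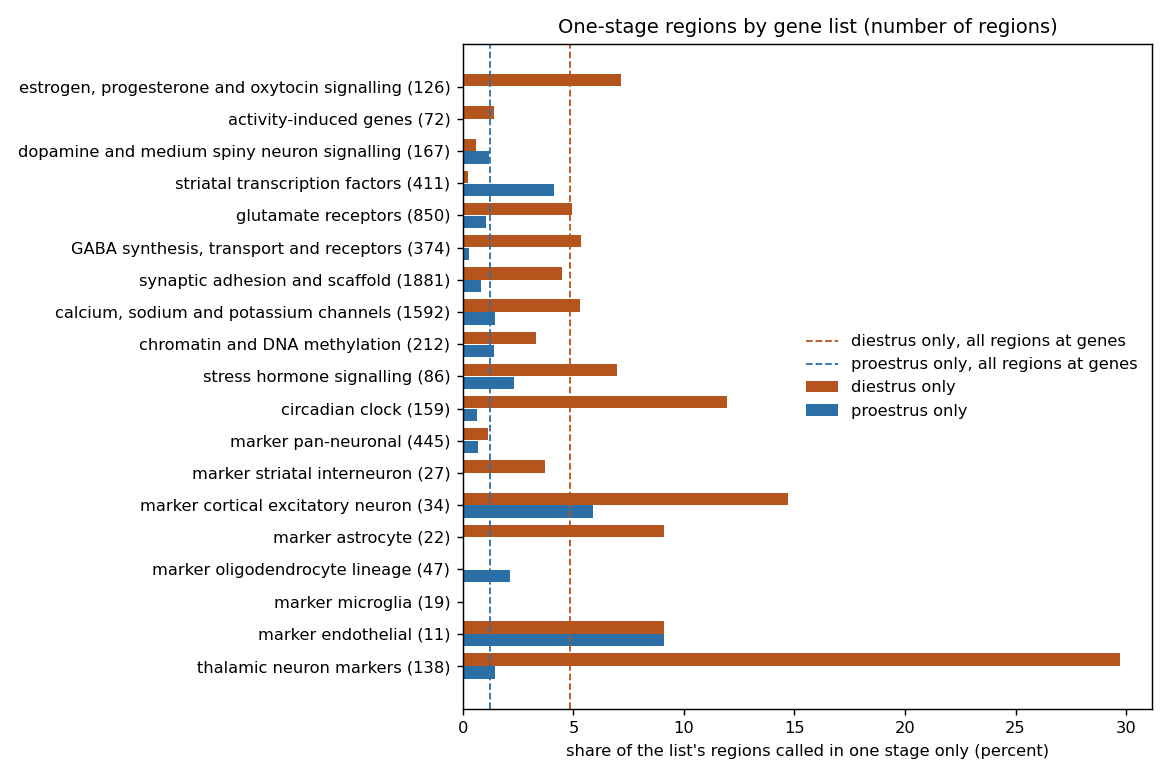
Share (percent) of the regions of each gene list that were diestrus only or proestrus only, with the number of regions in brackets. Dashed lines give the shares over all regions at protein-coding genes, 4.83% and 1.22%. The thalamic list, chosen after its values were seen, reaches 29.7%, and striatal transcription factors are the one list of over 100 regions in which the proestrus share exceeds 2%.

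The strongest proestrus-only regions differed in form from the diestrus ones. The 100 strongest had a median width of 382 bp, and quartiles of 377 and 385 bp, against a median of 786 bp in the 100 strongest diestrus-only regions. On average 44.6% of the bases around their summits were masked as repeats in the reference, against 9.91%. The letters GGCTGAGG, TGGGATTA and GTAGCTGG, which occur in repeats derived from 7SL RNA, were present on either strand in 20, 22 and 17 of these 100 proestrus regions and in 6, 1 and 0 of the diestrus ones. ATTCCATT, a unit of simple repeats, was present in 6 and 1. These strings were chosen after the sequences were seen. Over all 112406 regions they occurred in 2.11%, 1.43%, 0.849% and 1.10%. The sequence near Hif1an carries ATTCCATT in a run of overlapping copies.

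These regions also followed single libraries. Their median fold enrichment was 6.49 in proestrus control 1, against 4.29 and 3.98 in proestrus controls 2 and 3. Male control library 3 called 68 of the 100, proestrus cocaine library 4 called 42 and male control library 1 called 20. The other 8 libraries outside the comparison called 0 to 6. Of all tested regions the first libraries, in this order, called 71.7%, 66.9% and 72.5%, and the other 8 called 45.1 to 81.9%. Over all members, 194 proestrus-only regions (14.3%) and 309 diestrus-only regions (5.10%) had over 50% of the summit window masked. Without them 1158 proestrus-only and 5749 diestrus-only regions remained. Whether they come from misplaced repeat reads, or from DNA other than that of these mice, was not tested, so the values of the strongest proestrus-only regions carry that doubt.

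**Figure D4:**
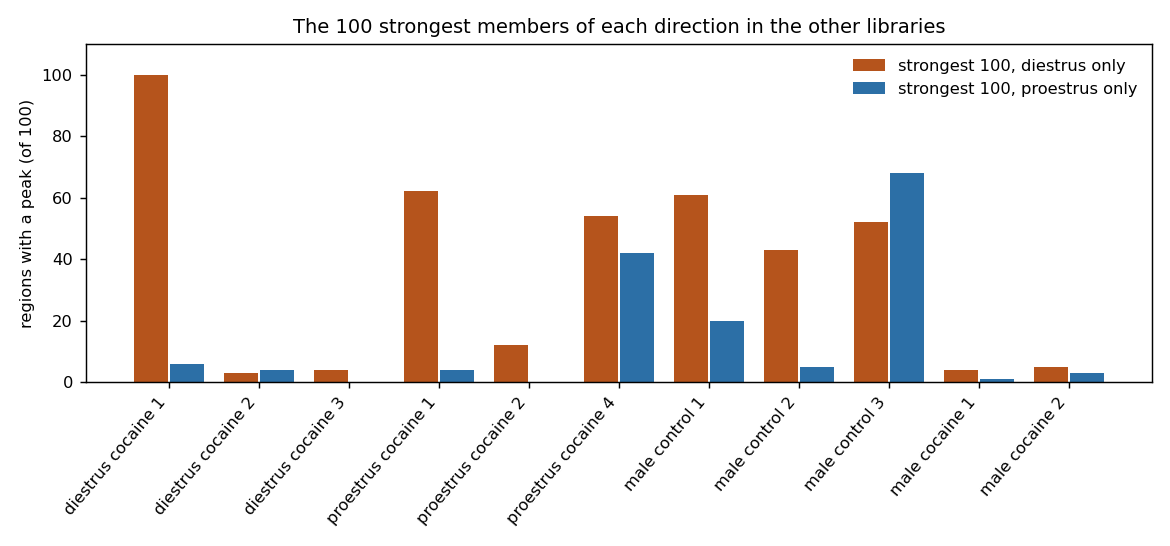
Number of the 100 strongest diestrus-only and of the 100 strongest proestrus-only regions with a peak in each of the 11 libraries that did not choose them. Diestrus cocaine library 1 called all 100 diestrus-only regions, and male control library 3 called 68 of the proestrus-only ones. Of all tested regions they called 81.9% and 71.7%.

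Short motifs were counted within 100 bp of the summits, on both strands. The hexamer of the estrogen response element, AGGTCA, was present in 14.1% of diestrus-only, 11.8% of proestrus-only and 9.08% of all tested regions. The full palindromic element was present in 2, 0 and 18 regions. The element shared by the progesterone and glucocorticoid receptors was present in 0.792%, 0.222% and 0.466%. The AP-1 motif TGACTCA, bound by Fos and Jun proteins, was rarer in members, at 6.83% and 4.36% against 8.98%. The CRE motif TGACGTCA was present in 0.314%, 0.444% and 0.565%, and the motif of the insulator protein CTCF in 1.49%, 2.44% and 4.07%. The E-box CAGCTG was present in 12.3%, 11.6% and 12.2%. The GC box GGGCGG, typical of promoters, was present in 2.99% and 4.14% of members against 10.7% of all regions. These shares are descriptions of the letters and carry no test.

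Per-library measures were then compared with the library as the replicate. Of 15 measures, 6 did not overlap between the stages, and for these the two-sided exact permutation p was 0.1, the lower limit of this design, or 0.25 after adjustment. Peaks lying over 10 kb from a start site were 53.0% ± 0.860 of all peaks in diestrus and 49.3% ± 0.612 in proestrus (SD, n = 3 each). The share of promoter peaks was 16.7% ± 0.726 in diestrus, with a difference from proestrus of -1.35 points (SD 0.537 in proestrus). The share with the CTCF motif was 3.41% ± 0.0502 and 3.71% ± 0.0492, with the GC box 9.57% ± 0.454 and 10.2% ± 0.241, with the CRE motif 0.494% ± 0.0255 and 0.532% ± 0.0211, and with the progesterone and glucocorticoid element 0.466% ± 0.0149 and 0.418% ± 0.0165. The number of peaks, 136378 ± 8778 and 125205 ± 5683, overlapped (exact permutation p = 0.2, adjusted p = 0.375). The share with the estrogen hexamer was 9.64% ± 0.317 and 9.74% ± 0.327 (exact permutation p = 1). None of the 15 measures passed an adjusted p of 0.05, which this design could not reach.

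Whether the stage pattern recurred was asked of libraries that had not chosen the members. Diestrus cocaine library 1 called 80.3% of the diestrus-only regions, but diestrus cocaine libraries 2 and 3 called 17.5% and 13.5%. The proestrus cocaine libraries called 33.7%, 23.7% and 30.5%, more than those 2 diestrus libraries. Of the proestrus-only regions, the diestrus cocaine libraries called 45.0%, 25.6% and 20.4%, and the proestrus cocaine libraries 36.2%, 24.4% and 34.8%. Over all 112406 regions the shares were 81.9%, 62.6% and 55.0% in diestrus and 68.3%, 65.0% and 66.9% in proestrus. Wilson 95% intervals of these shares, which cover counting error only, extended at most 2.65 points to either side. Of regions called in 2 diestrus controls and 1 proestrus control, the diestrus cocaine libraries called 64.2%, 34.6% and 26.6%. The proestrus cocaine libraries called 42.5%, 40.3% and 41.5% of these. For regions called in 1 diestrus and 2 proestrus controls the shares were 56.1%, 31.5% and 25.3%, and 39.6%, 33.8% and 38.1%.

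The difference between the stages after cocaine did not exceed the spread between libraries. For diestrus-only regions the mean share was 37.1% ± 37.5 in diestrus and 29.3% ± 5.11 in proestrus (exact permutation p = 1, n = 3 each). Without diestrus cocaine library 1 the difference of 7.82 points turned to -13.8 points (exact permutation p = 0.2). For proestrus-only regions the mean shares were 30.3% ± 12.9 and 31.8% ± 6.45 (exact permutation p = 0.9). The difference between both shares was 6.76 ± 24.7 points in diestrus and -2.54 ± 1.76 points in proestrus (exact permutation p = 1), and all 3 adjusted p were 1. Because these libraries had received cocaine, stage and drug cannot be told apart in a region that was not called again. Male control libraries, which have no estrous stage, called 42.8%, 33.9% and 41.0% of the diestrus-only and 40.1%, 31.4% and 43.8% of the proestrus-only regions. Of all tested regions they called 72.5%, 65.5% and 71.7%, but these include the 51581 regions called in all 6 controls. Of regions called in 2 diestrus controls and 1 proestrus control, the male controls called 48.0%, 39.6% and 47.0%. Of those called in 1 diestrus and 2 proestrus controls they called 45.9%, 34.6% and 44.4%. Members of both directions were thus called far less often than regions at large, and slightly less often than these.

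**Figure D5:**
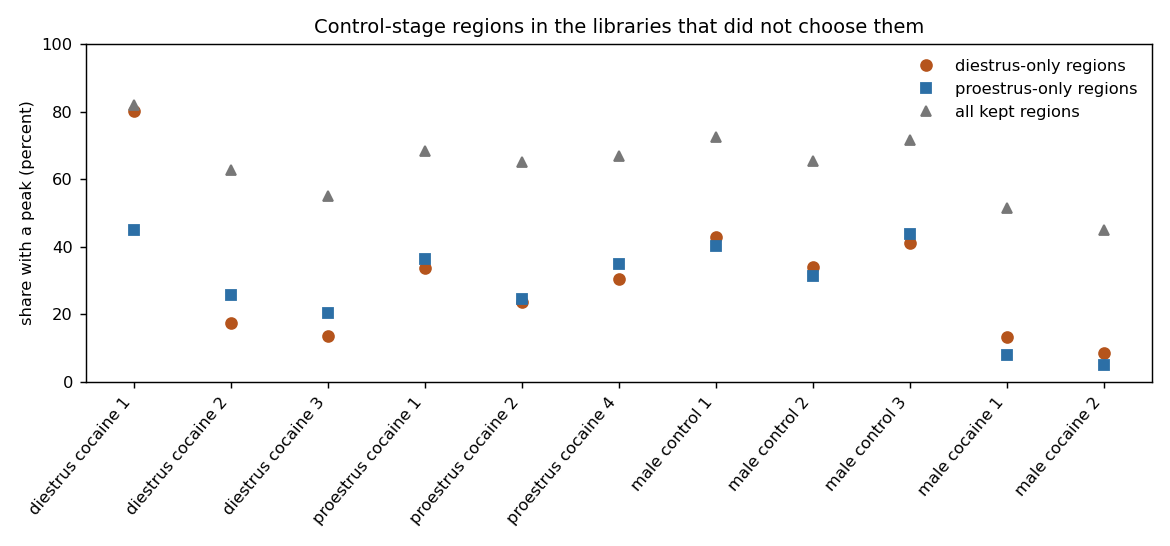
Share (percent) of diestrus-only regions (circles), proestrus-only regions (squares) and all 112406 regions (triangles) with a peak in each of the 11 other libraries. Diestrus cocaine library 1 stands at 80.3% for diestrus-only regions, and the other 10 libraries lie between 8.58 and 42.8%.

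The promoters behaved likewise. Of the 62 diestrus-only promoters, diestrus cocaine library 1 called 53, libraries 2 and 3 called 13 and 9, and the proestrus cocaine libraries 17, 17 and 12. The male controls called 35, 24 and 32. Of the 18 proestrus-only promoters the diestrus cocaine libraries called 11, 5 and 4 and the proestrus cocaine libraries 7 each. Calls over all promoters were not counted in these libraries. Of all tested regions, the diestrus cocaine libraries called 81.9%, 62.6% and 55.0% and the proestrus cocaine libraries 68.3%, 65.0% and 66.9%. For the male controls these shares were 72.5%, 65.5% and 71.7%. Only 4 of the 62 and 1 of the 18 had no peak in any other library, the latter that of Zfp607a. Of the 14 proestrus-only Foxp1 regions, the diestrus cocaine libraries called 8, 7 and 5, the proestrus cocaine libraries 10, 3 and 5, and the male controls 7, 6 and 9. Of all 176 Foxp1 regions the same libraries, in this order, called 131, 111 and 110, then 130, 92 and 119, then 124, 108 and 120. Of the 16 diestrus-only Rora regions, diestrus cocaine library 1 called 13, the other 5 cocaine-treated female libraries 1 to 5, and the male controls 6, 6 and 7. Of all 51 Rora regions these libraries called 37, then 14 to 26, and 31, 30 and 35.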

How the data were processed

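ATAC-seq peaks of 6 libraries (3 diestrus and 3 proestrus controls) were analysed, and those of the other 11 libraries of the series served for comparison. Stage had been judged from vaginal smears. Controls had received no cocaine. Per the labels and the study's methods, the authors aligned reads to mm10 with BWA and ran MACS2 on each library separately. The peak caller's version and options are not given in the sources used here. The deposited peaks carry a score, a fold enrichment (a ratio) and −log10 p and −log10 q values, each computed by the authors within 1 library and not normalized between libraries. Read counts were not used here, so the count model of the study could not be run.

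Peaks on chromosomes 1 to 19 were merged where they overlapped, giving 203924 regions, of which 112406 called in at least 2 libraries of 1 stage were kept. A region took the highest fold enrichment of a library's peaks. A promoter or whole gene took the highest over all its windows, so its values can come from different regions in different libraries. Start sites, exons and genes were those of protein-coding genes in GENCODE vM21 (20807 autosomal genes), and sequence was that of GRCm38, the same build. Background pileup was recovered from the steps of the fold enrichments. For regions called in all 6 libraries, log2 fold enrichment was centred on the library's median, a step chosen after the data were seen. Measures of each library were tested by exact permutation of the stage labels (two-sided), with Benjamini-Hochberg adjustment. Labels do not say whether pools share litters or sorting days, so p-values measure the spread between pools.

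Named were the 12 strongest promoters, 8 distal regions, 8 whole genes and the 6 genes with the most members in each direction, ranked by the weakest calling library, up to 4 genes per list, and 7 promoters of receptors and Fos. The members and gene lists were chosen with earlier results of these data known, and the thalamic list and the 4 repeat strings after their values were seen. Of the lists, 2 lost 1 gene each outside the autosomes. The largest share of identical intervals in a pair of control libraries was 0.07%. The functions were tested on simulated peaks. Python 3.11.15, pandas 2.3.3, numpy 2.4.6, scipy 1.17.1 and pysam 0.24.0 were used. Alternatives were merging over all 17 libraries, trimming peaks to 100 bp on either side of the summit, a −log10 q of at least 5, equal numbers of peaks (121156), a promoter window of 3 kb, a replicate block, leaving out each library and, chosen after the data were seen, leaving out regions mostly masked as repeats. Some items are not reported here.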

Additional observations from a re-analysis of the deposited data

How the results depend on the processing

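Under a stricter threshold (−log10 q of 5 or more), diestrus-only and proestrus-only regions numbered 3747 and 682, and distal ones 3551 and 617. With equal numbers of peaks, 29 promoters were proestrus only, and with a 3 kb window 104 were diestrus only. Diestrus-only counts stayed above proestrus-only counts under each of these alternatives. Leaving out 1 library loosens the rule to 2 of 2, or 0 of 2, so counts could only rise: to 7199 to 10564 and 1796 to 3996 regions, 6823 to 9983 and 1586 to 3494 distal regions, 75 to 126 and 22 to 54 promoters, and 137 to 191 and 22 to 43 genes. The diestrus-only region count was highest without diestrus control 1 (10564) and the proestrus-only count without proestrus control 1 (3996). Leaving out regions mostly in repeats, an alternative chosen after seeing the data, gave 5749 and 1158 regions and 5458 and 1017 distal regions.

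Differences between stages, diestrus minus proestrus, turned sign for covered length with equal numbers of peaks (-1.52 Mb) and, under the stricter threshold, for the share with the full estrogen element (0.0042 points) and its hexamer (0.198 points). Over single libraries left out, covered length ranged from -2.06 to 7.18 Mb, the hexamer share from -0.282 to 0.033 points and the E-box share from -0.16 to 0.277 points. In the cocaine libraries the difference ranged from -13.8 to 19.6 points for diestrus-only regions, from -8.80 to 3.48 for proestrus-only regions and from -4.97 to 16.7 for the difference of both shares. The causes were not tested.

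Same-numbered control libraries deviated together by r of 0.144, 0.0533 and -0.0192 across 51581 regions. Differently numbered pairs had r from -0.181 to 0.147. Whether same-numbered libraries share a batch cannot be told from these values. With the replicate block, the share of proestrus-only regions called after cocaine differed by 4.96 points over 2 pairs, opposite in sign, and the other 17 values kept their direction. No p could fall below 0.25 over 3 pairs or 0.5 over 2. The files used here give no read counts, and depth limits all calls near the threshold.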
